A study of Homo sapiens with 6 samples.

Results

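Expression of 30 genes of the p53 response was compared between a CD38 knockout clone and wild-type (WT) cells of MM.1S, an established human multiple myeloma line. The members were the genes whose symbols stood on a list of 30 known p53 inhibitors and target genes; all 30 were found among the 60671 genes of the count table, and 29 of them were among the 20120 genes that passed the filter on low counts. The CD38 KO cells were a clone (called E9 in the sample titles) made with CRISPR/Cas9, carrying GFP and click beetle red luciferase and sorted as live cells without surface CD38. The WT cells carried the same 2 reporters from a lentivirus and were sorted as live cells with surface CD38. Both lines grew in the same supplemented medium without a drug treatment named in the labels, and 3 replicates per group were prepared from the sorted populations. RNA was converted to cDNA with a low-input kit and sequenced, and the deposited values are raw read counts per gene.

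The transcription factor p53 is held at a low level by MDM2, a ubiquitin ligase that binds p53 and marks it for degradation, and by the related protein MDM4, which covers the activating domain of p53. After DNA damage and other stresses p53 is stabilised and binds paired half-sites in its target genes. The targets stop the cell cycle, repair DNA, supply nucleotides, promote or restrain cell death and change metabolism. MDM2 is itself a target, which closes a negative feedback loop. In myeloma, loss of p53 function is known as a mark of aggressive disease.

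Total counts were 61515519 to 65709440 in the CD38 KO libraries and 63606445 to 72335496 in the WT libraries. The knocked-out gene had 51, 80 and 48 counts in CD38 KO and 3148, 2678 and 2545 counts in WT, as the labels state. The labels call the cells B lymphoblasts. All 8 plasma cell markers examined were expressed, with a summed level of 9088 to 9121 CPM in CD38 KO and 7139 to 7145 CPM in WT. These markers did not move together, with 5 higher and 2 lower in CD38 KO. The largest rises in CPM were those of JCHAIN, from 943 in WT to 1950 in CD38 KO, and XBP1, from 1315 to 2217. MZB1 fell from 1188 CPM in WT to 1018 in CD38 KO, and SLAMF7 from 733 to 566. Of the 6 B cell markers 2 were tested, and those that did not pass the filter on low counts included MS4A1, PAX5 and CD22. The 6 summed to 22.1 to 23.3 CPM in CD38 KO and 27.0 to 27.4 CPM in WT. Most of this sum was CD79B, which was lower in CD38 KO, at 22.2 CPM against 27.0 CPM in WT on average. CD79A was higher, at 0.344 CPM in CD38 KO and 0.114 CPM in WT on average. CPM is the read count scaled to a common library size, with TMM factors that correct for the composition of each library. Summed markers of T cells were at 5.22 to 6.30 CPM in CD38 KO and 1.80 to 2.19 CPM in WT, with 3 of 6 tested and CD3E making up most of the sum, at 4.83 CPM in CD38 KO and 0.979 CPM in WT on average. Markers of NK cells (2 of 4 tested, mostly NCAM1) were at 54.2 to 59.3 CPM in CD38 KO and 61.4 to 68.6 CPM in WT. Stromal markers (2 of 5 tested) were at 5.38 to 6.40 CPM in CD38 KO and 3.49 to 4.55 CPM in WT. Myeloid markers (2 of 5) were at 1.13 to 1.69 CPM in CD38 KO and 2.25 to 2.96 CPM in WT, and erythroid markers (1 of 4, HBB) at 29.5 to 32.7 CPM in CD38 KO and 23.2 to 23.8 CPM in WT. The part of these markers in the results was not tested. Mitochondrially encoded genes held 6.83% to 7.30% of the counts in CD38 KO and 2.63% to 2.71% in WT. With those genes left out of the fit, 8 members were still higher and 12 lower in CD38 KO.

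The p53 targets changed in both directions, and no uniform rise or fall of the pathway was seen. By edgeR's quasi-likelihood test, with Benjamini-Hochberg adjustment over all genes tested and a threshold of 0.05, 8 of the 29 tested members rose in CD38 KO, 12 fell and 9 were not past the threshold. The share called was 69.0% of the members, beside 44.4% of all genes tested. Higher calls made up 27.6% of the members and 22.8% of all genes, and lower calls 41.4% of the members and 21.6% of all genes. Most members were abundant genes, with 26 of the 29 at or above the median level per length of tested genes in WT. Among the 12673 genes at least as abundant as the least abundant tested member (1.54 CPM), 58.6% were called. Most members lay well above that cut, so it matches their abundance only in part. The median log2 fold change was -0.11 over the members and 0.00021 over all genes tested, and the median size was 0.36 for the members and 0.32 for all genes. The largest rises were those of TP53INP1, GDF15 and SUSD6, and the largest fall was that of PERP. Only TP53INP1, GDF15 and PERP were called with a change of at least 2-fold, a rule met by 11.3% of all genes tested. GDF15 lay at that limit, with log2 fold changes of 0.92 to 1.06 over the alternatives. When the change was tested against 1.5-fold, TP53INP1, GDF15 and SUSD6 were higher and PERP lower in CD38 KO, beside 5.89% of all genes higher and 5.3% lower. In CPM, the 3 CD38 KO libraries did not overlap the 3 WT libraries for 23 of the 29 members, beside 52.5% of all genes. The CD38 KO libraries come from 1 clone, so the tests set that clone against this WT population. The labels do not say that the replicates were separate cultures, so their spread may be technical. In these bulk samples a change in the share of cells that express a gene and a change in RNA per cell cannot be told apart.

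**Figure D1:**
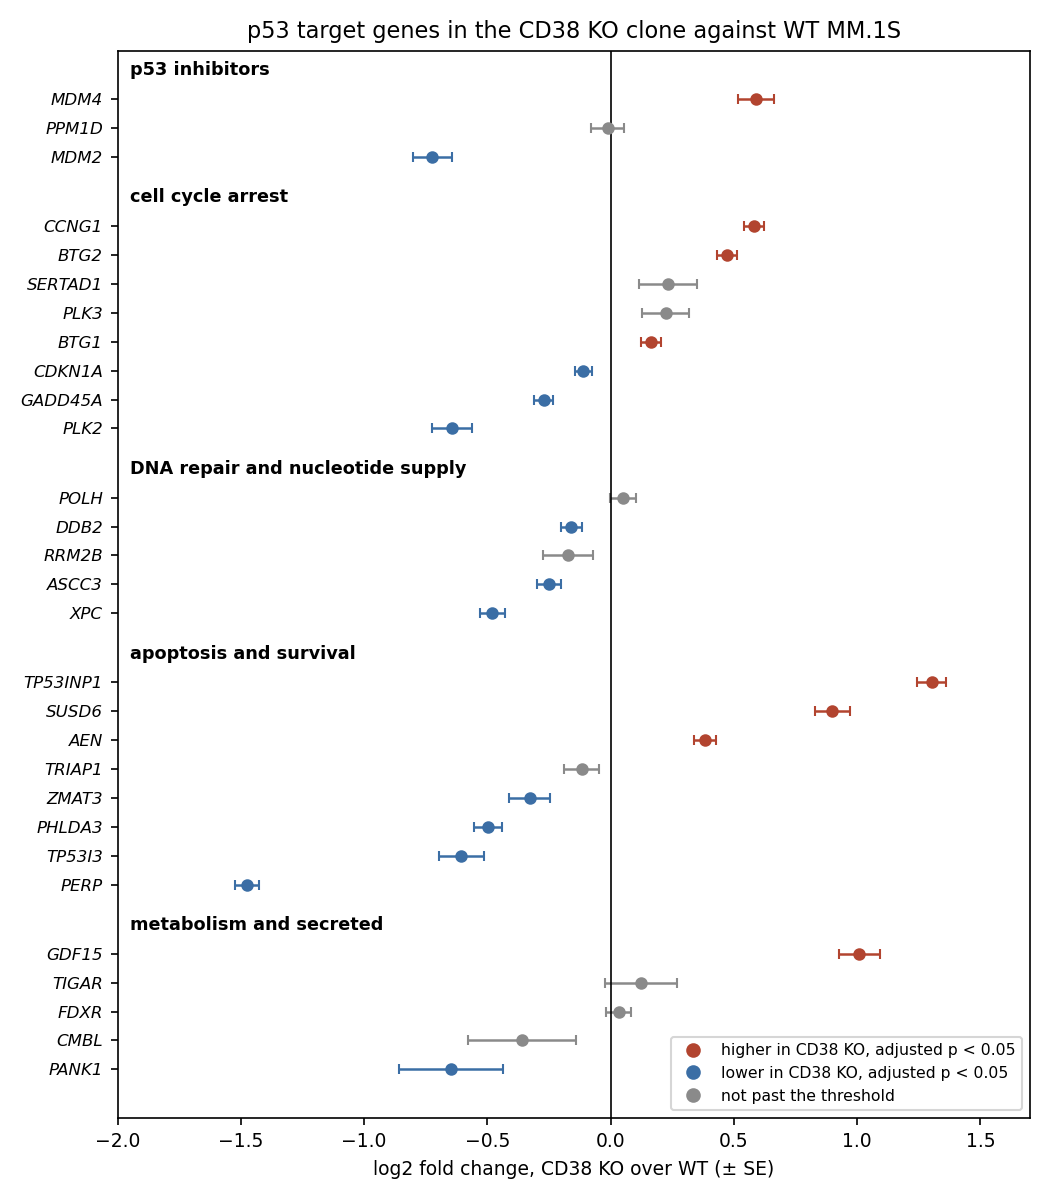
Log2 fold change of each tested p53 target gene, CD38 KO over WT, with its standard error, grouped by role; red points were higher and blue points lower at an adjusted p under 0.05, and grey points were not past the threshold. TP53INP1 at 1.30 and PERP at -1.47 mark the ends of the range. Both directions occur among the p53 inhibitors, the cell cycle genes, the genes of cell death and the metabolic and secreted genes, while the called repair genes all lie below 0.

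Sequences that match the p53 element lie close to a transcription start in 5 of the members, and these are shown because they place the sequence that p53 recognises beside genes that moved in different ways. The search used the p53 response element, a pair of 10-letter half-sites separated by 0 to 13 bases, in RefSeq promoter windows (build GRCh38.p14) from 250 bases before to 50 after each start. The C and the G in the core of each half-site had to match, so mismatches were allowed only at the other letters. The element reads the same on both strands. Windows were found for 24 of the 30 members, 32 windows in all, some of which overlap. Capitals mark letters of the half-sites that match the element, and lower case marks mismatches and the spacer.
DDB2: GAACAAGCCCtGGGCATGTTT
PANK1: GGGCATGCTCagtggcggGGACcAGTCT
MDM2: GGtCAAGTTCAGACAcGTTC
AEN: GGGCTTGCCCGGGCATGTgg
FDXR: GGGCggGCCCgggcaggagcGGGCTTGCCC

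The DDB2 element, with 0 mismatches and a spacer of 1 base, lies at chr11:47214979-47214999 on the plus strand, inside an exon in GENCODE 29, and begins 5 bases after the start. The MDM2 element, with 2 mismatches and no spacer, lies at chr12:68808923-68808942 on the plus strand in an intron of the gene, 94 and 101 bases before 2 of its listed starts. PANK1 (chr10:89645238-89645265, minus strand) has 1 mismatch, and AEN (chr15:88621306-88621325, plus strand) and FDXR (chr17:74872996-74873025, minus strand) have 2 each; all 3 lie within exons in GENCODE 29. DDB2, MDM2 and PANK1 fell in CD38 KO, AEN rose, and FDXR was not past the threshold. An element with up to 2 mismatches, none in the core letters, stood in 6 of the 32 member windows (18.8%) and in 2.93% of all 35116 promoter windows. The same MDM2 element stood in 2 of those 6 windows and is counted in each. One without a mismatch stood in 1 member window (3.13%) and in 10 of all windows (0.028%). A match is a description of the letters and not a measured binding site.

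Among the inhibitors of p53, MDM2 fell and MDM4 rose. MDM2 (chr12:68808176-68850686, plus strand, GENCODE 29) stood at 144, 110.2 and 125 CPM in CD38 KO, against 202, 216 and 207 CPM in WT. Its levels did not overlap between the groups, and the 3 CD38 KO libraries were spread more widely than the WT ones, with replicate 1 highest and replicate 2 lowest. MDM2 thus had a log2 fold change of -0.72, with an SE of 0.079 and an edgeR adjusted p of 2.10e-05. MDM4 (chr1:204516379-204558120, plus strand) stood at 56.9, 45.5 and 46.7 CPM in CD38 KO, against 32.5, 33.5 and 33.1 CPM in WT, with replicate 1 again the highest of the CD38 KO libraries. For MDM4 the log2 fold change was 0.59, with an SE of 0.073 and an edgeR adjusted p of 1.76e-06. PPM1D (the phosphatase WIP1), which removes activating phosphates from p53 and its kinases, averaged 26.4 ± 0.931 CPM in CD38 KO and 26.6 ± 1.07 CPM in WT (SD, n = 3 each; edgeR adjusted p = 0.904), and its groups overlapped.

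Because the relatives MDM2 and MDM4 moved in opposite directions, their ratio was computed in every library, per kilobase of exon in GENCODE 29. MDM2 was 2.09, 2.01 and 2.22 times the level of MDM4 in the CD38 KO libraries, against 5.17, 5.34 and 5.17 times in the WT libraries. The means were 2.11 ± 0.106 in CD38 KO and 5.23 ± 0.101 in WT (SD, n = 3 each). A two-sided exact permutation test gave p = 0.1, the smallest that 3 against 3 can give. The ratio was 1 of 3 such ratios between relatives, chosen after the values were seen, and the adjusted value over the 3 is also p = 0.1 in this exact permutation test. For BTG1 over BTG2 the ratio averaged 0.664 ± 0.00491 in CD38 KO and 0.822 ± 0.0397 in WT, and for PLK2 over PLK3 0.790 ± 0.0913 in CD38 KO and 1.45 ± 0.214 in WT (SD, n = 3 each), without overlap in either case.

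**Figure D2:**
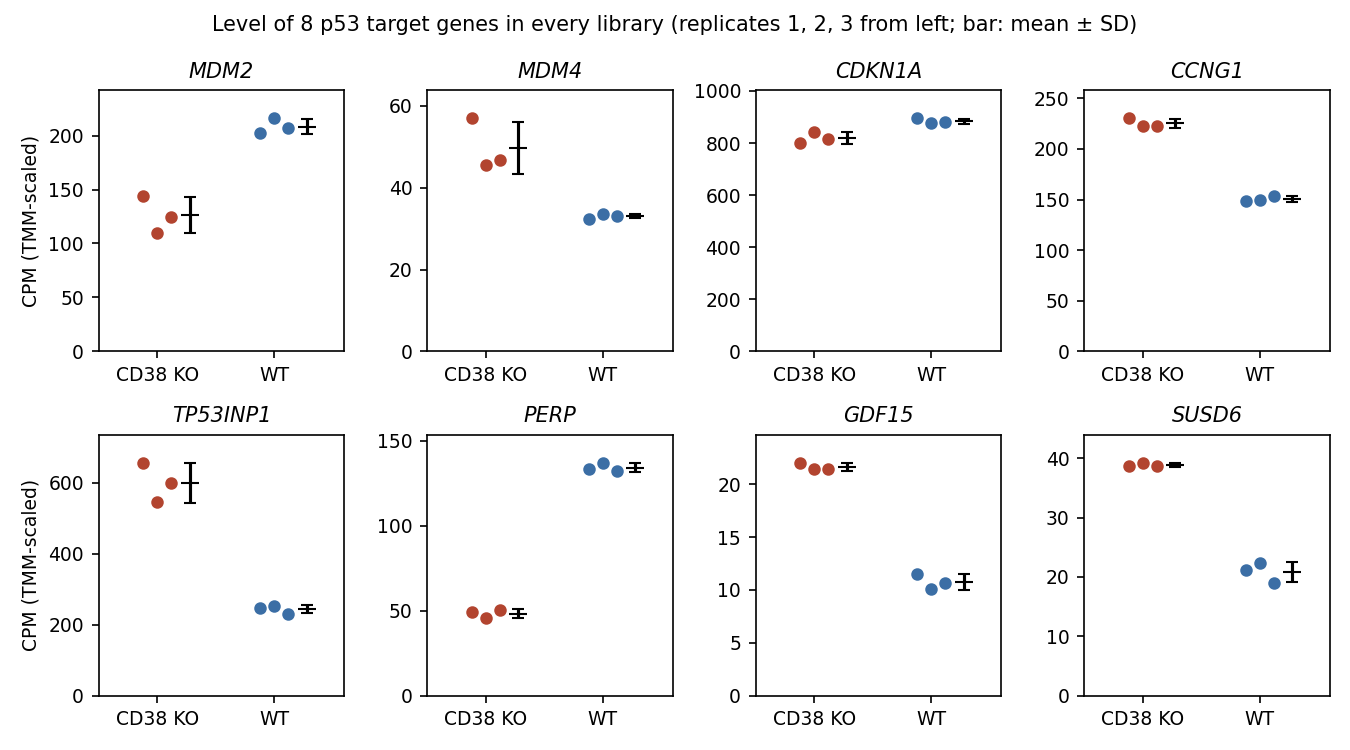
CPM of 8 p53 target genes in every library, CD38 KO replicates on the left of each panel and WT replicates on the right, with the mean and SD of each group beside the points; each vertical axis starts at 0. CDKN1A differs little, at 819 CPM in CD38 KO and 884 CPM in WT on average, while TP53INP1 and PERP differ in opposite directions, and MDM2, MDM4 and TP53INP1 show the widest spread among the CD38 KO libraries relative to their means.

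The cell cycle genes were divided. Of 8 tested, CCNG1, BTG2 and BTG1 rose, PLK2, GADD45A and CDKN1A fell, and 2 were not past the threshold. CDKN1A (chr6:36676460-36687339, plus strand) encodes p21, the inhibitor of cyclin-dependent kinases through which p53 halts the cycle. It stood at 799, 843 and 814 CPM in CD38 KO, against 894, 877 and 879.9 CPM in WT. Every CD38 KO library was below every WT library, but the difference was small, with -0.11 as the log2 fold change, an SE of 0.035 and an edgeR adjusted p of 0.0139. The call of CDKN1A was lost without CD38 KO replicate 1 (edgeR adjusted p = 0.0766), CD38 KO replicate 3 (0.0920) or WT replicate 3 (0.0514); the adjusted p ran between 4.14e-05 and 0.0920 across alternatives. With library size alone as the scaling its log2 fold change was -0.19.

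CCNG1, cyclin G1, which recruits a phosphatase that activates MDM2, stood at 230.1, 223 and 223 CPM in CD38 KO, against 148, 149 and 154 CPM in WT (log2 fold change 0.58, SE 0.040, edgeR adjusted p = 1.13e-10). Both groups of CCNG1 were tight and far apart. BTG2, an antiproliferative protein that recruits the mRNA deadenylase complex, stood at 172, 172 and 169 CPM in CD38 KO, against 126, 119.9 and 125 CPM in WT (log2 fold change 0.47, SE 0.041, edgeR adjusted p = 4.81e-09). Its relative BTG1 averaged 199.7 ± 2.89 CPM in CD38 KO and 178 ± 4.54 CPM in WT (SD, n = 3 each). The log2 fold change of BTG1 was 0.16 (edgeR adjusted p = 0.00192), and with library size alone it was 0.079 and no longer past the threshold (adjusted p = 0.104).

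GADD45A, a stress sensor that binds p21 and the replication clamp, stood at 172, 176 and 174 CPM in CD38 KO, against 206, 211 and 213 CPM in WT (log2 fold change -0.27, SE 0.039, edgeR adjusted p = 6.48e-06). PLK2, a polo-like kinase of stress and centriole duplication, stood at 13.7, 14.5 and 15.3 CPM in CD38 KO, against 21.1, 24.2 and 22.5 CPM in WT (log2 fold change -0.64, SE 0.082, edgeR adjusted p = 1.25e-06). Neither gene overlapped between the groups. PLK3, another stress kinase of that family, averaged 13.4 ± 0.813 CPM in CD38 KO and 11.5 ± 1.01 CPM in WT (SD, n = 3 each; edgeR adjusted p = 0.0617), and its groups overlapped. PLK3 was past the threshold as higher in CD38 KO in 3 alternatives. SERTAD1, a regulator of CDK4, averaged 7.23 ± 0.154 CPM in CD38 KO and 6.15 ± 0.680 CPM in WT (SD, n = 3 each; edgeR adjusted p = 0.125).

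Of the 5 genes of DNA repair and nucleotide supply, XPC, ASCC3 and DDB2 fell and the other 2 were not past the threshold. XPC, which recognises distorted DNA at the start of nucleotide excision repair, stood at 68.0, 73.7 and 66.5 CPM in CD38 KO, against 96.6, 93.4 and 100.2 CPM in WT (log2 fold change -0.48, SE 0.051, edgeR adjusted p = 9.19e-08). The exons of XPC overlap those of LSM3 on the opposite strand in GENCODE 29. LSM3 held 57.7% as many counts as XPC and was itself lower in CD38 KO (log2 fold change -0.20, edgeR adjusted p = 0.0168). No source used here states whether the counting used strand, and reads in the overlap cannot be told apart. ASCC3, a helicase that opens DNA for the repair of alkylated bases, averaged 104 ± 1.69 CPM in CD38 KO and 124 ± 8.26 CPM in WT (SD, n = 3 each; log2 fold change -0.25, edgeR adjusted p = 0.000218). DDB2, which finds ultraviolet damage in chromatin and carries the mismatch-free element printed above, stood at 93.5, 92.8 and 94.4 CPM in CD38 KO, against 105, 106 and 102 CPM in WT. The groups of DDB2 did not overlap, and its log2 fold change was -0.16, with an SE of 0.043 and an edgeR adjusted p of 0.00439. With library size alone the log2 fold change of DDB2 was -0.24.

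POLH, the polymerase that copies past ultraviolet lesions, averaged 54.8 ± 1.26 CPM in CD38 KO and 52.9 ± 1.24 CPM in WT (SD, n = 3 each; edgeR adjusted p = 0.468). Its exons overlap those of GTPBP2 on the opposite strand, which held 171.5% as many counts as POLH. RRM2B, the p53-induced subunit of ribonucleotide reductase, averaged 11.3 ± 1.43 CPM in CD38 KO and 12.8 ± 0.677 CPM in WT (SD, n = 3 each; edgeR adjusted p = 0.186), and it was past the threshold as lower with library size alone (adjusted p = 0.0484).

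The genes of cell death and survival held the widest range. Of 9 such members 8 were tested, and TP53INP1, SUSD6 and AEN rose while PERP, TP53I3, PHLDA3 and ZMAT3 fell. TP53INP1, a stress protein that aids p53-dependent death and autophagy, stood at 656, 544 and 599 CPM in CD38 KO, against 247, 252 and 231 CPM in WT. The CD38 KO libraries were all far above the WT ones, and replicate 1 was again highest and replicate 2 lowest among them. Its level was 2.47-fold higher in CD38 KO (log2 fold change 1.30, SE 0.059, edgeR adjusted p = 2.05e-10). PERP (chr6:138088505-138107511, minus strand), a membrane protein of desmosomes that is an effector of p53-dependent death, stood at 49.1, 45.5 and 50.3 CPM in CD38 KO, against 133, 137 and 132 CPM in WT. The PERP level in CD38 KO was 36.0% of that in WT (log2 fold change -1.47, SE 0.049, edgeR adjusted p = 1.05e-15), and both groups were tight.

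SUSD6, a sushi-domain membrane protein, stood at 38.7, 39.2 and 38.7 CPM in CD38 KO, against 21.2, 22.3 and 19.0 CPM in WT (log2 fold change 0.90, SE 0.069, edgeR adjusted p = 7.97e-10). AEN, a nuclease of apoptotic DNA cleavage, averaged 150.5 ± 1.27 CPM in CD38 KO and 115 ± 5.06 CPM in WT (SD, n = 3 each; log2 fold change 0.38, edgeR adjusted p = 2.85e-07). Neither SUSD6 nor AEN overlapped between the groups. TP53I3, a quinone reductase linked to oxidative stress, stood at 12.2, 11.5 and 14.4 CPM in CD38 KO, against 18.9, 20.2 and 18.8 CPM in WT (log2 fold change -0.61, SE 0.091, edgeR adjusted p = 1.12e-05). PHLDA3, which competes with the kinase AKT for membrane lipids, stood at 52.98, 60.1 and 56.7 CPM in CD38 KO, against 83.4, 74.6 and 81.5 CPM in WT (log2 fold change -0.50, SE 0.057, edgeR adjusted p = 3.46e-07). The WT libraries were above all CD38 KO libraries for both TP53I3 and PHLDA3. The exons of TP53I3 overlap those of FAM228B on the opposite strand, which held 22.8% as many counts and had a log2 fold change of 0.22.

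ZMAT3, an RNA-binding protein that acts on splicing, averaged 17.5 ± 1.53 CPM in CD38 KO and 21.9 ± 1.40 CPM in WT (SD, n = 3 each; log2 fold change -0.33, edgeR adjusted p = 0.00277). TRIAP1, a small mitochondrial protein that restrains apoptosis, averaged 21.5 ± 0.532 CPM in CD38 KO and 23.3 ± 0.534 CPM in WT (SD, n = 3 each; edgeR adjusted p = 0.192), and it was past the threshold as lower with library size alone (adjusted p = 0.0246). SPATA18, a protein of mitochondrial quality control, was the member that did not pass the filter. It had 0 counts in every CD38 KO library and 2 counts in every WT library, under the floor of 3 counts per library that a count of 0 allows, so no fold is given.

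Among the metabolic and secreted members, GDF15 rose, PANK1 fell and the other 3 were not past the threshold. GDF15 (chr19:18374731-18389176, plus strand), a secreted stress cytokine, stood at 22.02, 21.5 and 21.4 CPM in CD38 KO, against 11.5, 10.1 and 10.7 CPM in WT. The groups were far apart, and the level was 2.01-fold higher in CD38 KO (log2 fold change 1.01, SE 0.083, edgeR adjusted p = 2.27e-09). PANK1, the first enzyme of coenzyme A synthesis, had the lowest level per length of the tested members and stood at 2.16, 1.26 and 1.86 CPM in CD38 KO, against 3.09, 2.82 and 2.36 CPM in WT. The log2 fold change was -0.65, with an SE of 0.21 and an edgeR adjusted p of 0.0167. The call of PANK1 was lost without CD38 KO replicate 2 (edgeR adjusted p = 0.0856) or WT replicate 1 (0.0842); the adjusted p ran between 0.00319 and 0.0856 across alternatives.

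TIGAR, a phosphatase that slows glycolysis, averaged 4.34 ± 0.383 CPM in CD38 KO and 3.97 ± 0.401 CPM in WT (SD, n = 3 each; edgeR adjusted p = 0.528), and its exons overlap those of AC006122.1 on the opposite strand, which held 37.7% as many counts. FDXR, the mitochondrial ferredoxin reductase, averaged 60.5 ± 1.02 CPM in CD38 KO and 59.1 ± 1.56 CPM in WT (SD, n = 3 each; edgeR adjusted p = 0.637). CMBL, a hydrolase, averaged 1.34 ± 0.172 CPM in CD38 KO and 1.73 ± 0.165 CPM in WT (SD, n = 3 each; edgeR adjusted p = 0.203). The SE of the log2 fold change was 0.15 for TIGAR, 0.050 for FDXR and 0.22 for CMBL, so a small change of FDXR would have been easier to see than one of TIGAR or CMBL. The CPM of CMBL, like those of SERTAD1 and TRIAP1, did not overlap between the groups although the test was not past the threshold.

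The members spanned a wide range of levels per length, and the order was largely shared by the lines. CDKN1A led in both, at 268.5 ± 7.21 CPM per kilobase in CD38 KO and 289.7 ± 3.11 CPM per kilobase in WT (SD, n = 3 each). In CD38 KO the next were TP53INP1 at 105.7 ± 9.83, GADD45A at 84.2 ± 0.861 and CCNG1 at 72.7 ± 1.39 CPM per kilobase. In WT the next were GADD45A at 101.6 ± 1.96, CCNG1 at 48.6 ± 0.960, BTG2 at 44.7 ± 1.10 and TP53INP1 at 42.9 ± 1.90 CPM per kilobase, of which BTG2 and TP53INP1 did not differ beyond their spread. PERP was 14th of the 29 in CD38 KO and 7th in WT. RRM2B, ZMAT3, TIGAR, CMBL and PANK1 filled the 5 lowest places in both lines. Levels were typical of abundant genes, with a median percentile of 77.5 in CD38 KO and 83.2 in WT among 19829 tested genes with a length.

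**Figure D3:**
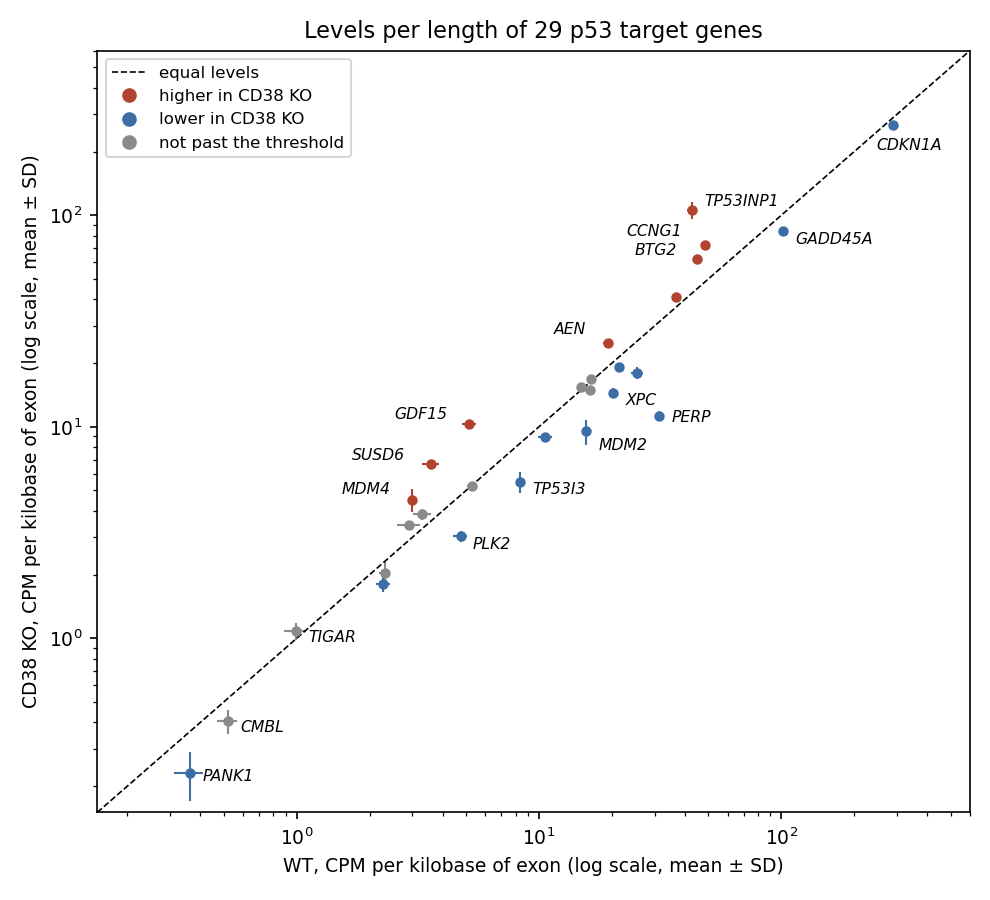
Mean level of each tested p53 target gene in CPM per kilobase of exon, CD38 KO on the vertical and WT on the horizontal axis, both logarithmic, with the SD over 3 libraries as bars and the dashed line marking equal levels. CDKN1A leads in both lines close to the line, TP53INP1, GDF15 and SUSD6 lie above it, and PERP, at 11.3 in CD38 KO and 31.3 in WT, lies farthest below.

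Summed over all 30 members, the level was 3195 ± 59.0 CPM in CD38 KO and 2982 ± 12.4 CPM in WT (SD, n = 3 each), and with library size alone it was 3104 ± 65.6 CPM in CD38 KO and 3069.5 ± 28.5 CPM in WT. The makeup of the sum differed more than its size. TP53INP1 made up 20.1%, 17.3% and 18.8% of it in CD38 KO, against 8.25%, 8.46% and 7.76% in WT. With TMM, TP53INP1 averaged 600 CPM in CD38 KO and 243 CPM in WT, a larger difference than that of the whole sum. The other members together were thus lower in CD38 KO. CDKN1A made up 24.5%, 26.8% and 25.6% in CD38 KO, against 29.9%, 29.5% and 29.6% in WT. PERP contributed 1.51% in CD38 KO and 4.50% in WT on average, and MDM2 3.94% in CD38 KO and 6.99% in WT.

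The replicates differed most for a small set of members. Within CD38 KO the coefficient of variation was above 10% for 6 members and within WT for 3, and the median over the members was 3.53% in CD38 KO and 4.04% in WT. Over the 8893 genes at 10 CPM or more, a cut that was not applied to the members, the medians were 4.45% in CD38 KO and 4.03% in WT. MDM2, MDM4, RRM2B, TP53INP1, ZMAT3 and PANK1 were highest in replicate 1 and lowest in replicate 2 of CD38 KO, 20.7% of the members beside 21.1% of all genes tested. The calls of MDM2, MDM4, TP53INP1 and ZMAT3 were kept with either of those libraries left out. MDM2 on chromosome 12 fell and BTG1 on the same chromosome rose, where the median log2 fold change of all tested genes was -0.11. PERP, CDKN1A and ASCC3, which fell, lie with POLH on chromosome 6, where that median was -0.00091. Relative to the median of its own chromosome, the median member had a log2 fold change of -0.088.

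Further genes of the pathway were examined from lists that are not part of the 30. Of 12 tested apoptosis targets of p53, 4 rose and 6 fell, 83.3% in all beside 44.4% of all genes tested, with a median log2 fold change of -0.090. FAS, a death receptor, averaged 28.7 ± 1.77 CPM in CD38 KO and 48.1 ± 0.367 CPM in WT (SD, n = 3 each; edgeR adjusted p = 2.02e-09). AIFM2, a suppressor of ferroptosis, fell by 0.47 on the log2 scale, while TNFRSF10B, a receptor for TRAIL, rose by 0.37. Of 31 further targets tested, 7 rose (22.6%, beside 22.8% of all genes) and 13 fell (41.9%, beside 21.6%), with a median of 0.017, and 5 rose and 15 fell with library size alone. NINJ1, which ruptures the plasma membrane in dying cells, averaged 97.4 ± 4.81 CPM in CD38 KO and 177 ± 5.03 CPM in WT (SD, n = 3 each; edgeR adjusted p = 1.67e-12). IER5, an immediate early response gene, had a log2 fold change of -0.71.

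Among 31 tested regulators and cofactors of p53, 9 rose and 8 fell, 54.8% in all beside 44.4% of all genes tested, with a median of -0.0087, and 7 rose and 13 fell with library size alone. SMYD2, a methyltransferase that modifies and restrains p53, stood at 16.4, 17.1 and 16.3 CPM in CD38 KO, against 37.1, 33.9 and 39.2 CPM in WT (log2 fold change -1.15, SE 0.072, edgeR adjusted p = 3.34e-11). The kinases TP53RK and HIPK2, which can phosphorylate p53, were higher, with log2 fold changes of 0.60 for TP53RK and 0.46 for HIPK2. For all 3 genes the CD38 KO and WT libraries did not overlap.

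Beside the small difference in CDKN1A, the cell cycle genes that are known to be repressed through p21 were nearly all higher in CD38 KO. All 22 were past the threshold, 19 higher (86.4%, beside 22.8% of all genes) and 3 lower (13.6%, beside 21.6%), with a median log2 fold change of 1.38. CCNB1, CDC20 and PLK1, which drive mitosis, averaged 255 ± 5.48, 192 ± 6.10 and 205 ± 8.76 CPM in CD38 KO, against 68.1 ± 1.86, 51.2 ± 1.03 and 59.5 ± 0.891 CPM in WT (SD, n = 3 each). MCM5, a subunit of the replicative helicase, and E2F1, a transcription factor of S phase entry, were among the lower ones and were named after their values were seen. The part of these cell cycle genes in the levels of the p53 targets was not tested.

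**Figure D4:**
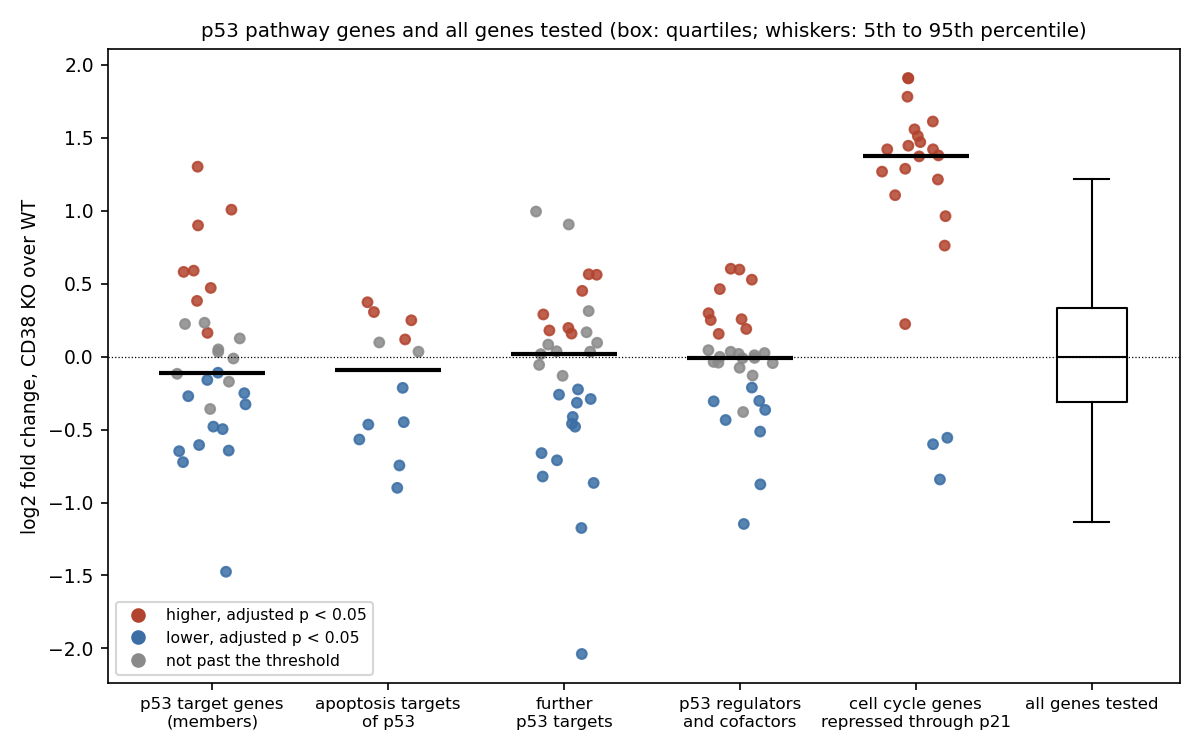
Log2 fold change of each tested gene, CD38 KO over WT, for the p53 target genes and 4 further lists, with each list's median as a bar and all 20120 genes tested as a box of quartiles with whiskers at the 5th and 95th percentiles. The 29 tested p53 target genes and the 3 lists of targets and regulators scatter to both sides of 0 with medians between -0.11 and 0.017, while 19 of the 22 cell cycle genes repressed through p21 lie above 0.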

How the data were processed

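RNA from 3 CD38 KO and 3 WT libraries was analysed. The values are raw read counts per gene, deposited by the authors; STAR 2.7.9a is listed, with Partek and DESeq2 and no role for any, in the submitters' processing notes; build, annotation and use of strand are not stated there. Identifiers repeated on 200 of 60871 lines were kept once. The groups were compared in R 4.3.3 with edgeR 4.0.16 (TMM, filterByExpr, robust quasi-likelihood test, no covariate; SE as the log2 fold change over the root of F), with p-values adjusted by Benjamini-Hochberg over all 20120 genes. Floors cover counting error only. Chromosomes and exon lengths came from GENCODE 29, by Ensembl identifier, for 98.6% of tested genes; elements came from RefSeq promoter sequences. The fit was tested on simulated data. Alternatives were other scalings and filters, DESeq2 1.42.0, limma-voom (limma 3.58.1), a replicate block, protein-coding genes only, each library left out, and testing against 1.5-fold; the fit without mitochondrially encoded genes was chosen after seeing the data. The members and lists were chosen with earlier results of these data known. Named genes were CD38, every member, and the 3 of each further list with the smallest adjusted p, of which 1 is not reported here; others were chosen after their values were seen.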

Additional observations from a re-analysis of the deposited data

How the results depend on the processing

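Of the 20 members called, 17 kept their call and direction under the 16 alternatives that changed the scaling, filter, tool, block, genes or libraries, and no called member reversed. CDKN1A, PANK1 and BTG1 lost their call in at least 1 of these 16, and PLK3, RRM2B and TRIAP1 gained one. Over the libraries left out in turn, 8 to 9 members were higher and 11 to 12 lower, and the median log2 fold change of the members lay between -0.11 and -0.075. That median was -0.12 with upper-quartile factors, -0.19 with library size alone (where the median of all genes was -0.083), -0.13 with no filter on low counts and -0.088 relative to the chromosome median. Tested against a 1.5-fold change, 3 members were higher (TP53INP1, GDF15 and SUSD6) and 1 lower (PERP), so all other called members lost their call, beside 5.89% of all genes higher and 5.3% lower. The summed level of the members was 212.9 CPM higher in CD38 KO with TMM and 34.4 CPM higher with library size alone. With library size alone, 3632 genes were higher and 5570 lower in CD38 KO, against 4592 and 4342 with TMM. The cause of these shifts was not tested. Same-numbered libraries did not deviate together, with correlations of 0.034, -0.0080 and -0.021 for replicates 1, 2 and 3, and not every library correlated best with its own number, so the numbers are not read as pairs; with the replicate number as a block, 8918 genes and the same counts of members, 8 higher and 12 lower, were called. Low counts limit PANK1, CMBL and TIGAR, whose SE were above 0.14.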
